A study of Canis rufus and Canis latrans with 56 samples.

Results

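Blood from 3 red wolves (11136, 111080 and 11310) carried a note in the sample description that it was collected in the wild, and these 3 animals, with 12 arrays, were set against the 10 other red wolves, with 40 arrays. They were chosen by that note alone, out of 13 wolves and 14 animals in all; the single coyote was left out. All 13 are red wolves (Canis rufus), sampled as whole blood kept in RNAlater, and their amplified RNA, carrying biotin, was read on Illumina bead arrays designed for human genes, with 4 arrays for each animal. No treatment or genotype is given for any group.

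The note does not give the status of an animal. Across the study 6 wolves were captive, of which 2 were female, and 7 were free-ranging, of which 2 were female, per the design text, but the labels used here give no status, sex or age for any single wolf. If the 3 noted wolves are free-ranging, 4 of the other 10 are free-ranging too, and the absence of a note is no sign of captivity. The 4 notes, 3 on wolves and 1 on the coyote, all stand on slide 32010, each on 1 array of the animal, and on that slide the descriptions are worded array by array. In 2 of the 3 wolves the wording speaks of all samples rather than of 1. Of the other wolves, 4 (10406, 10632, 10537 and 11270) have an array on slide 32010 with no such note, and 6 have none there. Animals were the replicates, so that p-values rest on 3 against 10 animals and not on arrays.

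Whole blood holds red cell precursors and reticulocytes, which carry globin RNA, beside neutrophils, monocytes, lymphocytes and platelets. A level in whole blood therefore follows both the mixture of cells and the RNA in each of them, and fewer cells of a type cannot be told apart from less RNA per cell. Several gene groups of blood are known to shift quickly with handling, exertion or stress hormones, among them the immediate early transcription factors, such as EGR1 and FOS, and glucocorticoid targets such as FKBP5. The study as titled asked for a signature of confinement in red wolf blood.

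Each level below is a log2 intensity relative to the mean of its array, with slide differences removed, and 1 unit is a doubling of the deposited intensity. Human probes can bind the RNA of another species unequally, so a level compares wolves for 1 probe and never 1 gene with another. To mark where a probe may hold no signal, 42 genes typical of liver or of skeletal muscle were read, and the highest of their means served as a background bound. That bound was 0.395, set by HPX, a plasma protein made in liver. Of 24354 probes, 2074 (8.52%) had a mean above it, covering 1607 genes with a symbol. The defining markers of blood were only partly among them: HBB and HBA2 of red cells, TYROBP of myeloid cells, LCK and LEF1 of T cells and PF4 of platelets lay above the bound, and no gene of the B and plasma cell list did.

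The arrays of wolf 11136 had the narrowest signal range on average. The 95th percentile of an array, averaged over the 4 arrays of an animal, was 0.381, 0.866 and 0.607 in wolves 11136, 111080 and 11310, against 0.568 to 0.861 in the other wolves. Wolf 11136 was thus below all 10 others, wolf 11310 was within their range and wolf 111080 just above it. Single arrays ran from 0.337 to 0.432 in wolf 11136 and from 0.332 to 0.839 in wolf 11310, which held the lowest array of all. The groups did not differ beyond the spread of animals (0.618 ± 0.243, SD, n = 3, against 0.756 ± 0.0934, SD, n = 10; exact permutation test over all 286 allocations, two-sided p = 0.143, smallest possible 0.0034965). The difference of -0.138 was -0.0195 without wolf 11136 (exact p = 0.864), -0.133 without wolf 11310 (exact p = 0.258) and -0.262 without wolf 111080 (exact p = 0.0303). Wolf 11136 lay below the range of the 10 others in 1039 of the 2074 probes above the bound and above it in 3. Wolf 11310 lay below in 895 and above in 117, and wolf 111080 below in 79 and above in 294. Quantile normalisation, which gives each array the same spread, and the omission of each noted wolf were therefore tried for the named genes and the lists, and values are given beside the results that they move most.

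No probe differed between the noted and the other wolves in limma after Benjamini-Hochberg adjustment (0 of 24354, 0%; smallest adjusted p 0.479). The single gene whose 3 noted wolves lay above all 10 others, among the probes above the bound, was AKIRIN2, a nuclear factor that carries proteasomes into the nucleus and takes part in innate immune gene induction. A group of other genes lay lower in all 3 noted wolves, with the largest mean differences in PGM1, FAM50A and WASHC2A, whose groups nearly touched, and hemoglobin and other red cell genes were lower on average. Before adjustment, 965 probes were higher (3.96%) and 1114 lower (4.57%) at a p under 0.05. Among the probes above the bound 112 were higher (5.4%) and 631 lower (30.4%), so the lower side held 84.9% of these. That split moved with the scaling and with single noted wolves. After quantile normalisation it was 316 higher and 561 lower. It was 298 higher and 286 lower without wolf 11136, 27 and 893 without wolf 111080, and 43 and 261 without wolf 11310. Over the 1607 genes above the bound the median difference was -0.12 as deposited and -0.09 after quantile normalisation, and single differences are to be read against that shift. With the arrays as units and animal as a random block in limma, 432 probes passed (1.77%). When that fit was made on the 2074 above the bound alone, a setting chosen after seeing the data, 164 passed (7.91%). AKIRIN2, VCP, PGM1, HBD and BNIP3L were in both. The arrays of an animal are repeats and not replicates, so these counts do not rest on 3 against 10 animals. The first fit took the correlation between arrays of an animal as 0.0758, and the second as 0.523. Both had 44 residual degrees of freedom, against 11 with 1 value per wolf.

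AKIRIN2 read 2.53, 2.93 and 2.90 in wolves 11136, 111080 and 11310. In the other wolves it ran from 0.52 in wolf 11273 to 2.36 in wolf 11105, with a median of 1.26. The 2 groups did not overlap, and the gap was 0.17 between the lowest noted and the highest other wolf. The mean difference was 1.42 ± 0.30 (SE; 2.68-fold; limma adjusted p = 0.479), positive on each of the 6 slides that hold both groups, with slide values from 0.77 to 1.80. Against only the 4 other wolves on slide 32010, which read 1.01, 0.73, 1.90 and 1.91, it was 1.40. Leaving out any 1 wolf gave 1.32 to 1.55. AKIRIN2 was picked because its groups did not overlap, so single slides or the loss of 1 wolf could hardly change its sign. After quantile normalisation it was 1.55, with a limma adjusted p of 0.0163, one of 2 probes past the threshold there (0.00821% of probes).

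VCP, the segregase that unfolds ubiquitin-tagged proteins for the proteasome, was the other. Its level was 1.03, 1.55 and 1.2 in wolves 11136, 111080 and 11310, and 0.14 to 1.25 (median 0.48) in the others. All 3 noted wolves were above the median of the others, and 1 other wolf reached 1.25, above the values of wolves 11136 and 11310. The difference was 0.71 ± 0.17 (SE) as deposited and 0.87 after quantile normalisation (limma adjusted p = 0.479 and 0.0163). ROMO1, a small protein of the inner mitochondrial membrane, differed by 0.86 ± 0.23. It read 2.02, 1.79 and 2.21 in the noted wolves and 0.61 to 2.16 (median 1.11) in the others. Every noted wolf was above 9 of the 10 others for ROMO1, and wolf 11310 above all of them. PDIA3, a chaperone of the endoplasmic reticulum, differed by 0.52 ± 0.16, with 0.64 in wolf 11136 close to the others' median of 0.68, and 1.52 and 1.35 in the other 2 noted wolves, above the others' highest value of 1.07.

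Non-overlap was far more common on the lower side among the probes above the bound, and nearly even over all probes. Over all probes, 100 had their 3 noted wolves above all others (0.411%) and 125 below (0.513%). Among the probes above the bound there was 1 above (0.0482%) and 56 below (2.7%). Taken singly, wolves 11136 and 11310 lay below the range of the others in 50.1% and 43.2% of these probes, and wolf 111080 in 3.81%. PGM1, the phosphoglucomutase that links glycogen to glycolysis, had the largest difference of the 56 among probes with a symbol. It read 0.70, 1.31 and 1.05 in wolves 11136, 111080 and 11310 and 1.33 to 1.98 (median 1.83) in the others. Wolf 111080 was 0.02 under the lowest of the other wolves, so the separation of PGM1 is narrow at that end. The difference was -0.72 ± 0.19 (SE), -0.71 after quantile normalisation and -0.57 without wolf 11136.

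FAM50A, a nuclear protein of messenger RNA splicing, read 0.61, 0.66 and 0.86 in the noted wolves and 0.87 to 1.58 (median 1.33) in the others, a difference of -0.56 ± 0.16. The 2 groups touch almost end to end for FAM50A. WASHC2A, a subunit of the WASH complex that builds actin on endosomes, differed by -0.54 ± 0.18, and CYB561, an electron-carrying membrane protein, by -0.52 ± 0.19. Their separation was as narrow. Wolf 111080 read 1.34 for WASHC2A and 1.393 for CYB561, against 1.37 and 1.395 in the lowest other wolf. The next ones were MAGEA6 (-0.50), CPLX4 (-0.48), LRRC49 (-0.44), DISP2 (-0.42), ZNF655 (-0.42) and IFNK (-0.41), with differences in log2. For LRRC49 too the groups nearly touched, at 0.88 in wolf 111080 and 0.89 in the lowest other wolf. Of these, MAGEA6 is known from testis and tumours, CPLX4 from retinal synapses and IFNK from keratinocytes, so that blood is not their usual tissue. Other probes of MAGEA6 and ZNF655 had means under the bound and differences between 0.03 and 0.10, which do not follow the brighter probe. The differences of all 10 genes in this group stayed under 0 without each noted wolf in turn and after quantile normalisation. These genes were picked because their groups did not overlap, so leaving out 1 noted wolf could hardly change a sign.

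**Figure D1:**
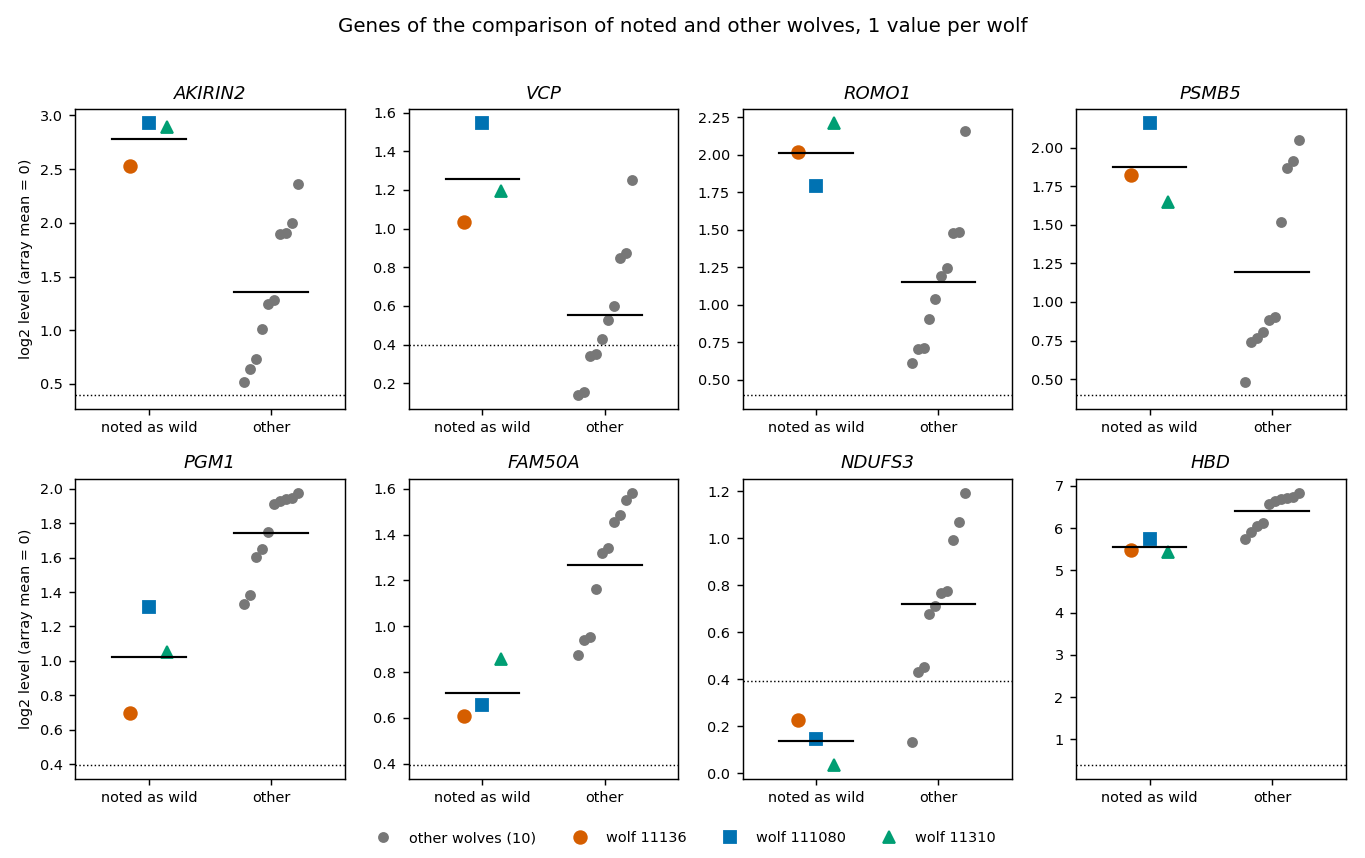
Log2 level (array mean at 0) of 8 genes in the 3 noted wolves, 1 marker each, and the 10 other wolves (grey points), with short lines at the group means and the background bound of 0.395 as a dotted line. AKIRIN2 lies above all 10 other wolves in each of the 3 noted wolves; PGM1 and FAM50A lie below; the groups of the other 5 genes overlap.

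Other genes were named for their small p-values, and of these NDUFS3, UBB and OR8D1 overlapped between the groups. NDUFS3, a core subunit of respiratory complex I, read 0.23, 0.15 and 0.04 in the noted wolves, all under the bound, and 0.13 to 1.19 (median 0.74) in the others, with 1 other wolf as low. On average NDUFS3 passed the bound only through the other wolves, and its difference was -0.58 ± 0.15. UBB, which encodes polyubiquitin, read 7.26, 8.02 and 7.50, against 7.85 to 8.61 (median 8.37). The difference of UBB was -0.71 ± 0.19 as deposited and -0.07 after quantile normalisation. That step sets the brightest ranks of every array to the same values, so it leaves little room for a difference in so bright a probe. It therefore cannot decide whether UBB differs, and the cause was not tested. OR8D1, an olfactory receptor, differed by -0.77 ± 0.20 and MCEMP1, a membrane protein of mast cells and monocytes, by -0.40 ± 0.11. MCEMP1 did separate them, with 0.37, 0.52 and 0.43 in the noted wolves and 0.61 as the lowest of the others.

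For gene groups, the brightest probe stood for its gene, and members are counted against the 1607 genes above the bound, of which 96 were higher (5.97%) and 457 lower (28.4%) at an unadjusted p under 0.05. By sign alone, 1063 of the 1607 (66.1%) had a difference under 0 and 544 a difference above 0. No member of any list passed adjustment in limma, and a p given for a list member is unadjusted.

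Red cell genes had lower mean levels in the noted wolves. Of 22 measured members 9 lay above the bound, and 5 of the 9 had an unadjusted p under 0.05. All 9 had a difference under 0, as did 66.1% of all genes above the bound. Their median was -0.38 as deposited and -0.39 after quantile normalisation, against -0.12 and -0.09 for all genes above the bound. Without wolves 11136, 111080 and 11310 in turn the median was -0.40, -0.47 and -0.30. The mean level of the 9 was 1.96, 2.17 and 1.68 in wolves 11136, 111080 and 11310, and 2.07 to 2.81 (median 2.48) in the others. Wolves 11136 and 11310 were below all 10 others and wolf 111080 was within their range.

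HBD, a beta-type globin in the human genome whose probe was the brightest of the list, read 5.49, 5.75 and 5.43 in the noted wolves and 5.74 to 6.84 (median 6.61) in the others. Wolves 11136 and 11310 thus lay under the lowest of the other wolves for HBD and wolf 111080 level with it, and the difference was -0.85 ± 0.29 (SE). BNIP3L, a receptor for the removal of mitochondria as red cells mature, had the largest difference of the list, -1.12 ± 0.41. It read 2.52, 2.56 and 1.97 in the noted wolves and 2.22 to 4.31 (median 3.75) in the others. HBA2 (-0.38), GATA1 (-0.30), the erythroid transcription factor, and AHSP (-0.24), the chaperone of alpha globin, were the other 3 with a p under 0.05. HBG1 (-0.62), HBG2 (-0.61), HBB (-0.24) and HBA1 (-0.22) had larger p-values. Globin genes are near copies of each other, and human probes for them may read the same canid transcripts, so they are not separate evidence.

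The proteasome list went the other way. Of 31 measured members 10 lay above the bound, 9 of these had a difference above 0, and 3 had an unadjusted p under 0.05. The median was 0.26 as deposited and 0.34 after quantile normalisation, and 0.53, 0.22 and 0.14 without wolves 11136, 111080 and 11310. The 3 were PSMA1, an alpha subunit of the core (0.78 ± 0.36, SE), PSMB5, which holds the chymotrypsin-like site (0.68 ± 0.27), and PSMC6, an ATPase of the cap (0.53 ± 0.20). PSMB5 read 1.82, 2.16 and 1.65 in the noted wolves, all well over the others' median of 0.89. The other wolves 11270, 11105 and 11206 read 1.92, 1.87 and 2.05, above noted wolves 11136 and 11310. For PSMA1 these other wolves read 2.67, 2.75 and 2.78, above the 2.36, 2.60 and 2.63 of noted wolves 11136, 111080 and 11310. Other PSMA1 probes, under the bound, differed by 0.06 and 0.01. The mean of the 10 genes was 1.12, 1.75 and 1.75 in wolves 11136, 111080 and 11310 and 0.63 to 1.79 (median 0.98) in the others, so the noted wolves lay above that median and inside the range.

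The actin cytoskeleton list had 16 of 31 measured members above the bound, 11 of them with a difference above 0 and a median of 0.29 (0.41 after quantile normalisation). ARPC2 (0.99 ± 0.45, SE) and ARPC3 (0.75 ± 0.26), subunits of the actin-branching complex, CDC42 (0.81 ± 0.34), a small GTPase that drives it, and MYL6 (0.73 ± 0.30), a myosin light chain, had a p under 0.05 on the higher side. MYH9 (-0.40 ± 0.14), the myosin heavy chain of blood cells, and MSN (-0.21 ± 0.10), a membrane linker, had one on the lower side. A second ARPC2 probe above the bound differed by -0.38, against the direction of the brighter one. Other CDC42 probes, under the bound, differed by -0.04 and 0.04. Without wolf 11136 the list's median was 0.85 and without wolf 111080 it was 0.07, so single animals moved it widely.

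**Figure D2:**
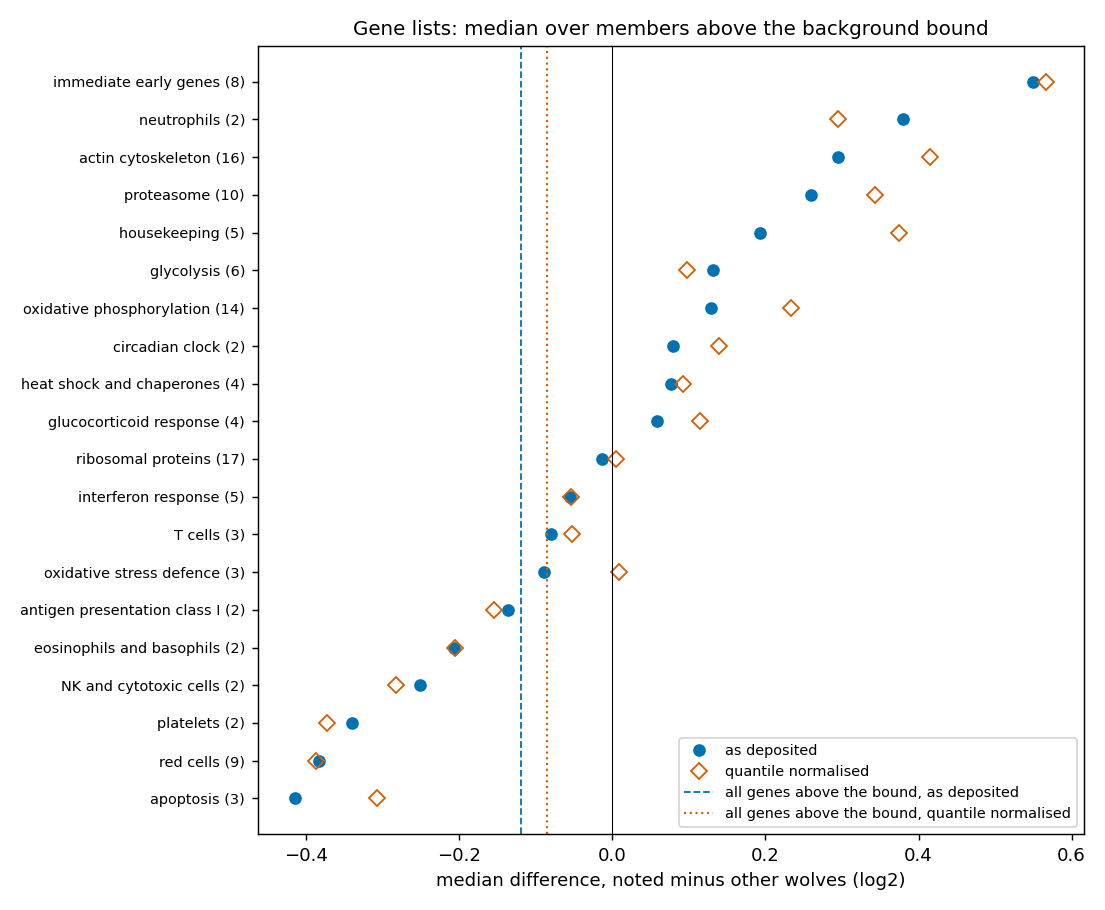
Median difference (log2, noted minus other wolves) over the members of each gene list above the background bound, with their number in brackets, as deposited (filled) and after quantile normalisation (open), for lists with at least 2 such members. Dashed and dotted lines mark the medians of all 1607 genes above the bound; the red cell list lies at -0.38 and the proteasome list at 0.26.

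The immediate early genes had 8 of 22 measured members above the bound and a median of 0.55, with EGR1, FOS and KLF2 higher and NR4A3 lower at a p under 0.05. These transcription factors are induced without new protein synthesis soon after a stimulus. The list's median was 0.92, 0.23 and 0.22 without wolves 11136, 111080 and 11310 in turn. The values of EGR1 and FOS rest on wolf 11310. EGR1 read -0.08, 1.14 and 5.47 in wolves 11136, 111080 and 11310, and -0.22 to 1.83 (median 0.04) in the others. FOS read 0.74, 2.13 and 4.69, and 0.20 to 2.34 (median 0.80) in the others. Without wolf 11310 the difference of EGR1 went from 1.71 to 0.08 and that of FOS from 1.43 to 0.36. KLF2, which keeps lymphocytes and endothelium quiescent, read 1.16, 2.30 and 1.68, above the others' median of 1.01 in all 3 wolves.

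Glucocorticoid response genes did not share a direction. Of 4 above the bound among 19 measured, CEBPB was higher (1.04 ± 0.49, SE) and FKBP5 (-0.39 ± 0.11) and CEBPD (-0.19 ± 0.09) lower at a p under 0.05, and KLF9 was 0.31 ± 0.27. The list's median of 0.06 was 0.21, -0.03 and 0.01 without wolves 11136, 111080 and 11310. CEBPB, a myeloid transcription factor, read 4.23, 6.35 and 6.64 in the noted wolves and 3.63 to 6.03 (median 4.45) in the others. Wolf 11136 thus stood under the others' median and the other 2 noted wolves above all of them. The difference of CEBPB was 1.79 without wolf 11136. FKBP5, a brake on the glucocorticoid receptor, read -0.17, 0.40 and 0.21 and 0.33 to 0.83 (median 0.55) in the others, within reach of the bound in most wolves. Its difference was -0.24 without wolf 11136. On average FKBP5 passed the bound only through the other wolves (0.53, against 0.15 in the noted wolves).

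The energy genes were mixed. Oxidative phosphorylation had 14 of 67 measured members above the bound and a median of 0.13, with NDUFV1 (-0.78 ± 0.28, SE) and NDUFS3 of complex I lower at a p under 0.05 and none higher. ATP5F1A of the ATP synthase was 0.70 ± 0.36. The median was 0.03 without wolf 111080 and 0.01 against only the 4 other wolves of slide 32010. Glycolysis had 6 of 19, with a median of 0.13, which was 0.50 without wolf 11136 and -0.27 without wolf 111080. GAPDH read 5.05, 5.72 and 5.05 in the noted wolves and 2.99 to 5.32 (median 4.14) in the others, a difference of 1.00 ± 0.47. ALDOA was higher (0.50 ± 0.22) and PFKL, a phosphofructokinase, lower (-0.22 ± 0.10). Other ALDOA probes, under the bound, differed by -0.05, 0.03 and -0.02.

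Ribosomal protein genes had 17 of 69 measured members above the bound, a median of -0.01 and no member with a p under 0.05. RPL18 shows what 1 animal does to this list: it read 2.03, 5.37 and 5.38 in wolves 11136, 111080 and 11310, and 4.42 to 5.55 (median 5.07) in the others. Without wolf 11136 the list's median was 0.28, and without wolf 111080 it was -0.14.

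The smaller lists are given in counts. The 3 apoptosis genes above the bound, BCL2L1 (-0.76 ± 0.29, SE), a survival factor of late red cells, BAX (-0.41 ± 0.20) and BAD (-0.24 ± 0.11), its opponents, were all lower at a p under 0.05. BCL2L1 and BNIP3L are abundant in red cell precursors, and the red cell list was lower in the same wolves; its part in this result was not tested. Heat shock genes had 4 above the bound and interferon response genes 5, with no p under 0.05 in either. The median was 0.08 for the first and -0.06 for the second.

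Markers of white cells and platelets were few above the bound. Neutrophil genes had 2 of 25, CDA (0.95 ± 0.50, SE), which breaks down cytidine, and NCF1 (-0.19 ± 0.08), an oxidase subunit. The NK and cytotoxic list had 2 of 19, GZMB, a granule protease, and CTSW (-0.17 ± 0.12). GZMB read -0.13, 0.49 and 0.21 in the noted wolves and 0.39 to 0.64 in the others (-0.33 ± 0.10). GZMB and NCF1 averaged 0.19 and 0.28 in the noted wolves, under the bound. They passed it only through the other wolves, at 0.51 and 0.48. Platelet genes had 2 of 17, PF4, a platelet chemokine, and GP1BB, which hardly differed (-0.04 ± 0.08). PF4 read 0.54, 1.46 and 1.00 against 1.24 to 1.92 (-0.64 ± 0.20). Without wolf 11136 the difference was -0.16 for GZMB, -0.10 for NCF1 and -0.44 for PF4. The T cell list had 3 of 21, with LEF1 at -0.22 ± 0.10, LCK at 0.12 ± 0.14 and CD6 at -0.08 ± 0.09, and the monocyte list 1 of 15, TYROBP at -0.14 ± 0.10. Of 2 eosinophil and basophil genes above the bound, HDC, the histamine-making enzyme of basophils, was -0.32 ± 0.10 and SIGLEC8 -0.10 ± 0.12. Of 2 class I presentation genes above the bound, B2M, the light chain, was -0.45 ± 0.14 and PSMB10, a subunit of the immunoproteasome, 0.17 ± 0.17. PPARG, a lipid-sensing receptor, was -0.59 ± 0.21, and its other probe, under the bound, differed by -0.03. No member of the B and plasma cell, proliferation, sex-linked, liver or skeletal muscle lists lay above the bound.

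**Figure D3:**
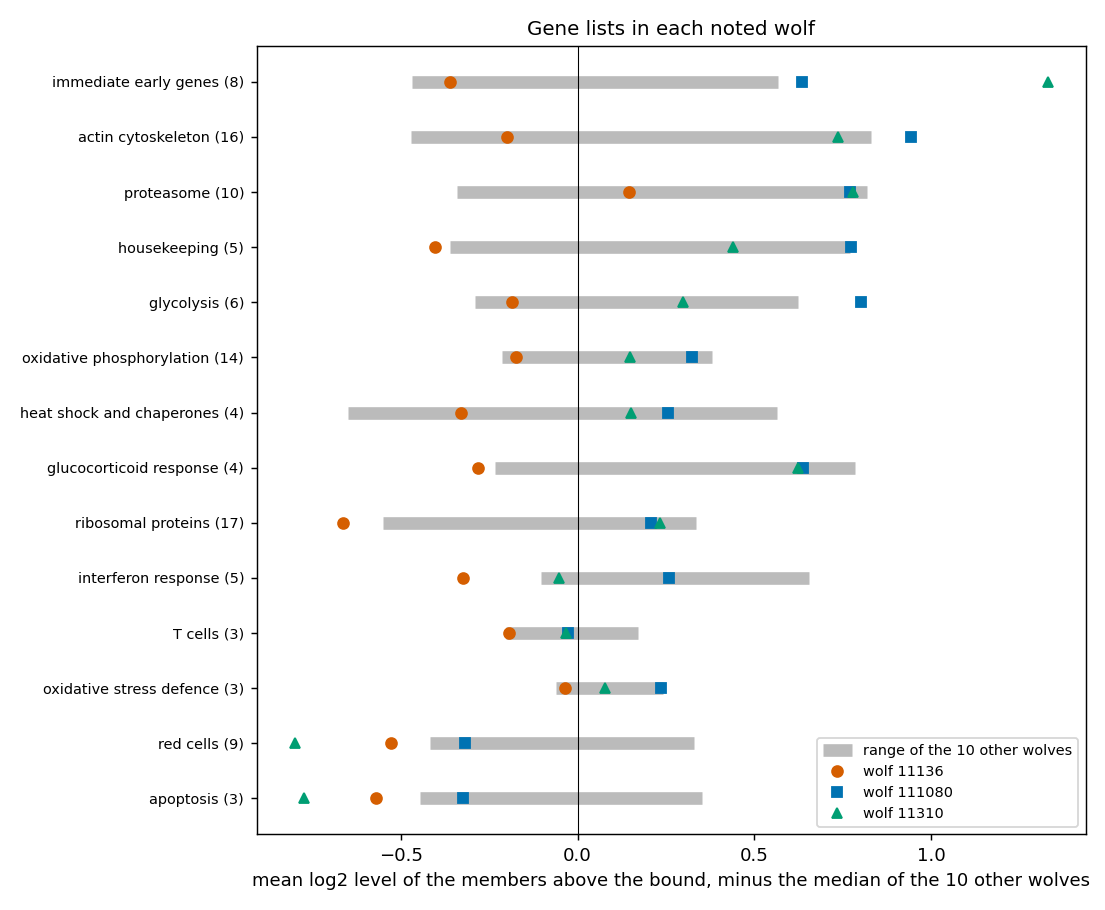
Mean log2 level of the members above the background bound in each of the 3 noted wolves, minus the median of the 10 other wolves, for lists with at least 3 such members (number in brackets), with the range of the 10 others as a grey bar. For the red cell list wolves 11136 and 11310 lie below the bar and wolf 111080 inside it; for the immediate early genes wolf 11310 lies furthest above it.

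Each noted wolf was also set singly against the 10 others in limma. The spread was taken from those 10, and 1 animal is assumed to vary like them. Wolf 11310 was higher in 18 probes (0.0739%) and lower in 0 (0%) at an adjusted p under 0.05, wolf 111080 higher in 3 (0.0123%) and lower in 0, and wolf 11136 higher in 0 and lower in 1 (0.00411%). These calls compare 1 animal with 10 and say nothing of the note.

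In wolf 11310 EGR1 rose by 5.01 (limma adjusted p = 1.48e-05) and FOS by 3.60 (adjusted p = 0.000963). DYNLL2, a dynein light chain, was higher by 1.69 and AZIN1, which protects ornithine decarboxylase from breakdown, by 1.48 (both with a limma adjusted p of 1.82e-07). CIRBP, the cold-inducible RNA-binding protein, was higher by 1.40 and ATG3, of autophagy, by 1.35. The call list also held the stress genes PPP1R15A (0.90) and GADD45B (0.64), the pseudokinase TRIB1 (0.54) and the zinc exporter SLC30A1 (0.47). CHCT1, TNFRSF17, TUBB2B and SYNCRIP and 4 probes without a symbol completed the 18. Over the 13 wolves DYNLL2, CIRBP, PPP1R15A, GADD45B, TNFRSF17, TUBB2B, SYNCRIP, TRIB1 and SLC30A1 had means under the bound, so the sizes given for them are set against probes that may hold no signal in the other wolves. DYNLL2 read 1.80 in wolf 11310, and 0.35 and 0.27 in wolves 11136 and 111080, beside -0.09 to 0.31 in the others. AZIN1 read 1.77, against 0.15 and 0.66 in wolves 11136 and 111080 and 0.15 to 0.39 in the others. Its difference between the groups, 0.57, was 0.12 without wolf 11310, and the second, brighter AZIN1 probe differed by -0.01. All 10 other wolves were under the bound for AZIN1, which passed it on average only through the noted wolves.

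In wolf 111080 the 3 higher probes were MARCO, a scavenger receptor of macrophages (2.07; limma adjusted p = 0.00407), HEY1, a Notch target (0.65), and TLDC2 (0.58). MARCO read 2.34 in wolf 111080, 0.13 and 0.18 in wolves 11136 and 11310 and -0.04 to 1.37 in the others. HEY1 and TLDC2 had means under the bound over the 13 wolves, and MARCO, at 0.27 on average in the other wolves, was above it only through wolf 111080. Among the genes that did not pass the test, DHRS7, an oxidoreductase, was furthest above the other wolves (5.66, against a highest value of 4.67), followed by CFL1, EMP3 and POR.

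In wolf 11136 the single call was a probe without a symbol, lower by 5.24 (limma adjusted p = 2.26e-05). How many probes passed in this wolf moved with quantile normalisation, with equal spread of the arrays and with the intensity trend left out. It thus hung on model settings as well as on some of the scalings. CDC14B, a phosphatase, read 0.11 in wolf 11136, 5.26 and 3.17 in wolves 111080 and 11310 and 2.69 to 5.51 in the others. CFL1, which severs actin filaments, read 0.63 against 5.34 and 3.88 and 2.65 to 4.49 in the others, and EEF1A1, the translation elongation factor, 0.34 against 3.78 and 3.51 and 2.61 to 3.79. A bright probe was thus near or under the bound in wolf 11136 alone in all 3 cases, and none of them passed adjustment.

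**Figure D4:**
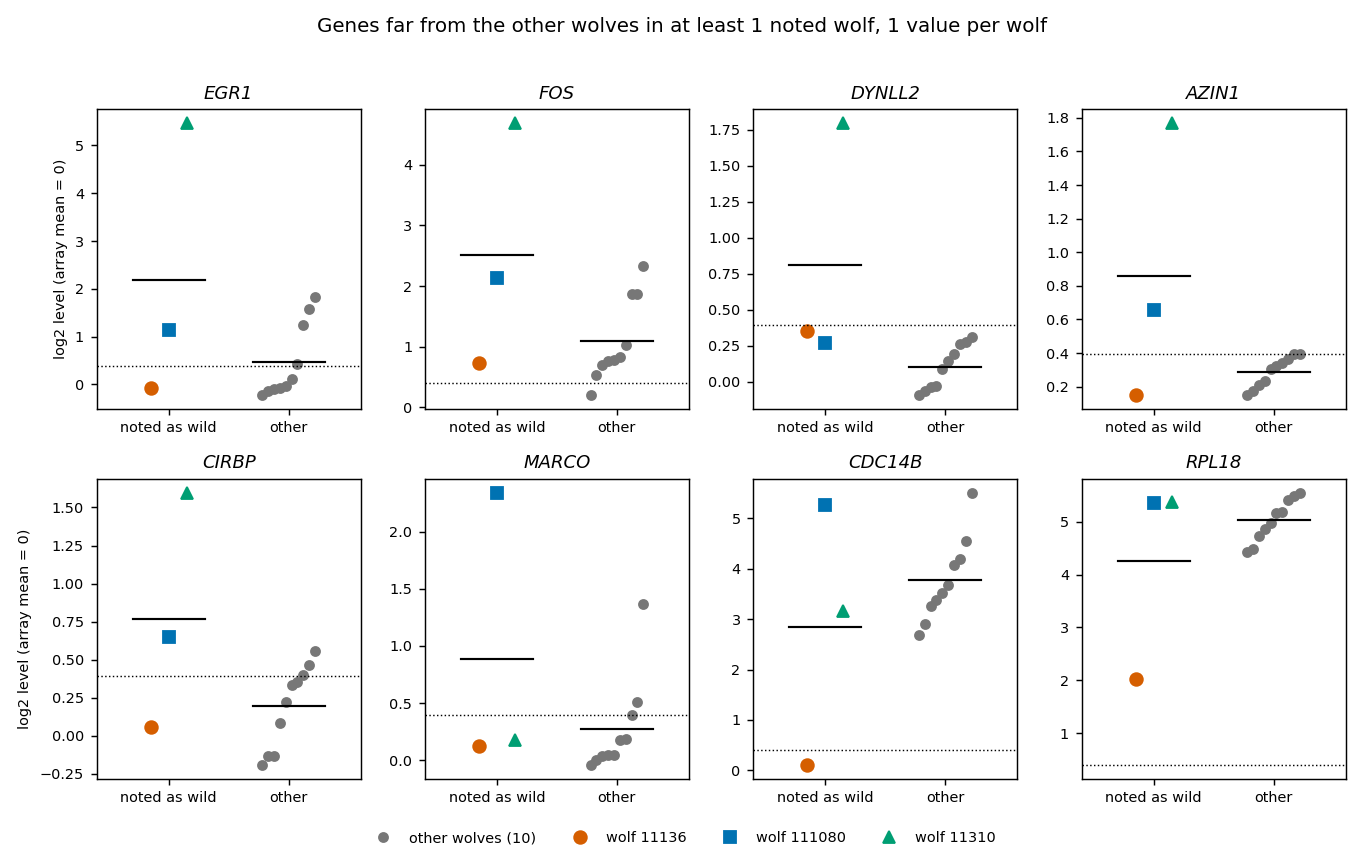
Log2 level (array mean at 0) of 8 genes in which at least 1 noted wolf lay outside the range of the 10 other wolves, drawn as in the plot of genes by group. EGR1, FOS, DYNLL2, AZIN1 and CIRBP are highest in wolf 11310, MARCO in wolf 111080, and CDC14B and RPL18 are lowest in wolf 11136.

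As a measure over all probes above the bound, the root mean square difference was taken for each pair of wolves. It averaged 0.553 over the 30 pairs of a noted and an other wolf, 0.545 over the 3 pairs of noted wolves and 0.425 over the 45 pairs of other wolves. The mean over pairs between the groups was larger than that over all 48 pairs within them by 0.121 (exact permutation test over 286 allocations, two-sided p = 0.0245), and leaving out any 1 wolf gave 0.0976 to 0.156. Of the 48, 45 are pairs of other wolves, so the statistic sets the noted wolves against the tighter spread of the others and does not show them alike. The distances among the noted wolves were 0.683 between 11136 and 111080, 0.556 between 11136 and 11310 and 0.396 between 111080 and 11310. None had another noted wolf as its nearest animal. Wolf 11136 was nearest to wolf 10632 (0.428), and wolves 111080 and 11310 were both nearest to wolf 11270 (0.267 and 0.335).

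**Figure D5:**
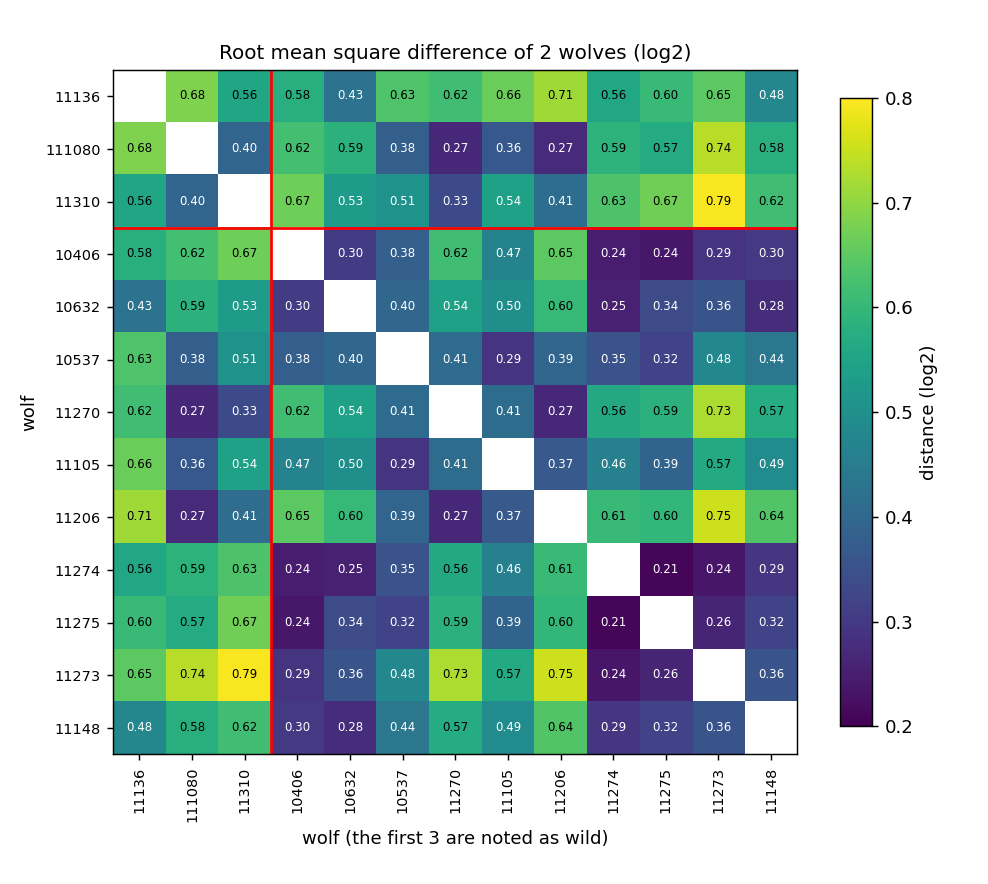
Root mean square difference (log2) over the 2074 probes above the background bound between each pair of the 13 wolves, with the 3 noted wolves first and red lines at their border. The block of noted wolves runs from 0.396 to 0.683, and wolf 11310 is furthest from wolf 11273 at 0.795.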

How the data were processed

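The file deposited for the series holds intensities on a log2 scale, which the authors centred on the median of each array, per the labels' design text; the submitters' processing notes name BeadStudio 1.5.0.34. In the file array means are 0, medians run from -0.167 to -0.0325 and 95th percentiles from 0.332 to 1.24; background subtraction was not stated in the sources used here. A symbol was given for 18339 of 24354 probes. Animal and slide were fitted by least squares in R 4.3.3 to the wolves' arrays, giving 1 value per wolf. These values were compared with limma 3.58.1 and its eBayes (intensity trend) at a Benjamini-Hochberg adjusted p of 0.05. Single values used exact permutation of animals. The scripts were tested on simulated data. Named genes are, above the bound, up to 10 per direction whose groups do not overlap, the 5 smallest p-values per direction, up to 2 per list by difference, and, per noted wolf and direction, the 5 farthest outside the others' range among probes above the bound on average or in that wolf; list members with a p under 0.05 are also named, chosen after their values were seen. The wolves, lists and rules were chosen with earlier results of these data known. Alternatives changed the scaling, model terms, filter and animals. The number of animals, with only 3 noted wolves, limits the precision.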

Additional observations from a re-analysis of the deposited data

Results flagged for a closer look

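Among the 84 values tested over the 10 other wolves, 4 had 1 wolf far from the rest, where chance flags about 5% of such groups. NCF1 read 0.225 in wolf 10632, with 0.428 the next lowest. SF3B5, a splicing factor subunit, read 0.0408 in the same wolf, with 0.188 next. MARCO read 1.37 in wolf 11105, with 0.513 next. AAMDC read 3.07 in wolf 11105, with 2.49 next.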

How the results depend on the processing

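The count of probes differing between the noted and the other wolves was 0 in most settings, 0 to 2 when 1 wolf was left out, and 2 after quantile normalisation (AKIRIN2 and VCP). The 2 without wolf 11136 were AZIN1 (0.92) and RBM7 (0.46). With the arrays as units and animal as a random block it was 432 (1.77%; 109 higher and 323 lower), at an estimated correlation of 0.0758 between arrays of an animal. Over the probes above the bound alone, chosen after seeing the data, that correlation was 0.523 and the count 164 (7.91%; 54 higher and 110 lower), AKIRIN2, VCP, PGM1, PSMB5, HBD and BNIP3L among both. Both of these counts treat repeat arrays of an animal as units, so they do not rest on animals. With the 4 other wolves of slide 32010 only and 1 value per wolf, the count was 0. The cause was not tested. Wolf 11136 had 610 probes apart after quantile normalisation, 74 with equal spread, 13 without the slide term, 65 without the intensity trend and 20 over probes above the bound. Wolf 111080 had 0 in the last 2 settings, and wolf 11310 had 35 after quantile normalisation and 7 and 4 in those 2. The difference in signal range ran from -0.262 to -0.0195 with 1 wolf left out. Of 83 named genes 70 kept their sign in every setting. Most of them were picked for large differences or non-overlap in these same values, which favours a kept sign. The distance between groups kept an exact p under 0.05 in each setting. No paired analysis was possible because the groups share no replicate numbers.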
